A study of Mus musculus with 6 samples.

Results

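The genes of 4 groups of pre-mRNA splicing proteins were followed in mouse bone marrow-derived macrophages (BMDM), the macrophages that grow from marrow cells in macrophage colony-stimulating factor (M-CSF). Members were the rows of the deposited expression table whose gene symbol began with Srsf and a digit, Hnrnp, Snrp, or Sf3a or Sf3b and a digit. The rule found 53 of 25124 genes: 11 SR protein genes, 21 hnRNP genes, 12 snRNP protein genes and 9 genes of the SF3A and SF3B complexes. The M2 group was 3 libraries of wild-type C57BL/6 cells taken 4 h after 10 ng/ml interleukin-4 (IL-4) was added with 20 ng/ml M-CSF. The M0 group was 3 libraries of the same kind of cells left in 20 ng/ml M-CSF without IL-4. All cells came from 8-week-old mice and had been cultured for 7 days, so the groups share the growth factor and differ in the IL-4. The labels do not say whether the libraries of a group came from separate mice or cultures, so the p-values below measure the spread between these libraries, which may be technical.

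Splicing removes introns from pre-mRNA in the spliceosome, which is assembled on each intron from small nuclear ribonucleoprotein particles (snRNPs). The U1 particle pairs with the 5′ splice site and the U2 particle with the branch point, and U2 is held in place by the SF3A and SF3B complexes. SR proteins, named for their arginine and serine repeats, bind exons and mostly promote the use of nearby splice sites. The hnRNPs coat the nascent RNA and often act against splice-site use. Many genes of both families regulate their own mRNA through exons that trigger its decay. In lymphocytes, Hnrnpll is known as the regulator that drives exon skipping in the transcript of Ptprc, which encodes CD45, when these cells are activated.

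The promoters of 5 members are printed as examples from groups described below. Each is the 250 bases before the annotated start in RefSeq, build GRCm38.p6, written 5′ to 3′ on the gene's strand. Capitals mark every match, on either strand, to 4 motifs: CCGGAAG, a core bound by ETS factors, CACGTG, the E-box bound by Myc and related factors, TTCNNNGAA, which most STAT proteins prefer, and the form with 4 bases between TTC and GAA, which the IL-4 signal transducer STAT6 prefers. Hnrnpd and Hnrnpdl lie close together and fell by nearly the same amount. Snrpb2 and Snrpa1 encode a protein pair of U2, and Srsf7 lies on the same strand as Hnrnpll and not far from it. The Hnrnpd promoter at chr5:99978939-99979188 (minus strand) held 1 E-box and 1 CCGGAAG. The Hnrnpdl promoter at chr5:100039223-100039472 (minus strand) held none of the 4 motifs. The Snrpb2 promoter at chr2:143062819-143063068 (plus strand) held 2 CCGGAAG matches, beginning 28 and 9 bases before the start. The Snrpa1 window at chr7:66060086-66060335 (plus strand) held no match and 4 CG dinucleotides. The Srsf7 promoter at chr17:80207306-80207555 (minus strand) held 1 CCGGAAG.
Hnrnpd promoter: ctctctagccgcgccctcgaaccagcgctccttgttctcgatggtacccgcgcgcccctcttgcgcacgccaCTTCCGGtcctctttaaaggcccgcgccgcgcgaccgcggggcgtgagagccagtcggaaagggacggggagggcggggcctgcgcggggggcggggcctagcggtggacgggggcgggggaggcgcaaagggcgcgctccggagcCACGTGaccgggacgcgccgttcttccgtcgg
Hnrnpdl promoter: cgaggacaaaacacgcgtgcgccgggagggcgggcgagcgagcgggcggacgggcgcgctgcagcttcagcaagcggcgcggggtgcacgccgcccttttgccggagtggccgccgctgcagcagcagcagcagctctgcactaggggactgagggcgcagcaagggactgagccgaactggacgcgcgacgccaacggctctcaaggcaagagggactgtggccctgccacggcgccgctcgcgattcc
Snrpb2 promoter: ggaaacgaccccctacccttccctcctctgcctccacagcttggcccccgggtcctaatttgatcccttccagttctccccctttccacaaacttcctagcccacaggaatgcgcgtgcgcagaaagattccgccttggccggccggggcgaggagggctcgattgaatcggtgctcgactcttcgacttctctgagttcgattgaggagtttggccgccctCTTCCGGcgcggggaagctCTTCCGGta
Snrpa1 promoter: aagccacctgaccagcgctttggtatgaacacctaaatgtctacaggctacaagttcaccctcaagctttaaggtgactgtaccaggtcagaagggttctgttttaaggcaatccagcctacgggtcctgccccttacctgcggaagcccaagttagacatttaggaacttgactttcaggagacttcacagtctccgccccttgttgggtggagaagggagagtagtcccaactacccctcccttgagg
Srsf7 promoter: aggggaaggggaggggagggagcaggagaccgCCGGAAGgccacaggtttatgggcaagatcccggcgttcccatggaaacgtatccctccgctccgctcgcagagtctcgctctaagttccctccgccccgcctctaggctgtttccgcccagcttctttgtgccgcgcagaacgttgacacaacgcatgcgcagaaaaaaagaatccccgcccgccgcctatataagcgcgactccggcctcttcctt

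Promoter sequences were matched for 47 of the 53 members, by gene symbol, among them Srsf12, Snrpn and Hnrnpa1l2-ps2, which were not tested for expression. Some genes have several listed starts, and a gene was counted if any of its promoters held the motif. CCGGAAG occurred in 15 of these 47 genes (31.9%), against 17.2% of the 8797 tested genes with a promoter and 7.83% of all 27025 genes with one. The 15 were Hnrnpd, Hnrnpf, Sf3a1, Sf3a2, Sf3a3, Sf3b2, Sf3b3, Sf3b6, Snrpb2, Snrpc, Snrpg, Srsf11, Srsf4, Srsf5 and Srsf7, and thus included genes that fell and genes that did not pass. CACGTG occurred in 4 of 47 (8.51%), in the promoters of Hnrnpa3, Hnrnpd, Hnrnpf and Snrpa, against 10.5% of tested genes. The form preferred by STAT6 was found in 1 member, Hnrnpul1 (2.13%), against 5.72% of tested genes, and TTCNNNGAA in 4 members (8.51%) against 7.04%. The median number of CG dinucleotides, taken per gene as the highest over its listed starts, was 20 in members and 17 in tested genes. A match of letters is no evidence of binding, and none of these shares was tested.

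Levels are in TPM, the authors' measure of how abundant a transcript is once its length and the library's depth are taken into account. The deposited genes drew on 16986733 to 19019896 reads in M2 libraries and 16913185 to 18624197 in M0 libraries, as recovered from the TPM values. Macrophage markers such as Adgre1 and Csf1r were all detected (8 of 8 at 1 TPM or more). The 6 IL-4 response markers, among them Arg1 and Retnla, summed to 9294 to 9660 TPM in M2 libraries and 201.8 to 244.7 TPM in M0 libraries. No marker of T and NK cells, mast cells, dendritic cells or erythroid cells reached 1 TPM in 3 libraries, although the dendritic cell gene Zbtb46 had 1.055, 0.996 and 1.124 TPM in M2 and 0.13, 0.066 and 0.035 TPM in M0 libraries. Of the B cell markers 1 of 5 reached that level, of the neutrophil markers 3 of 6 and of the stromal markers 2 of 6. Neutrophil markers summed to 8.845 to 12.16 TPM in M2 and 11.01 to 12.21 TPM in M0 libraries, and stromal markers to 7.24 to 7.772 TPM in M2 and 9.709 to 10.11 TPM in M0 libraries. The part of these levels in the results was not tested, and in bulk RNA fewer cells of a type and less RNA per cell cannot be told apart. M0 replicate 2 stood somewhat apart: over tested genes its log2 values scattered around the other M0 libraries with an SD of 0.223 and 0.24, against 0.186 between those 2 and 0.176 to 0.181 among M2 libraries.

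Most members were lower after IL-4. Of the 50 members that could be tested (at least 1 TPM in at least 3 libraries), 40 fell, 1 rose and 9 did not pass at a Benjamini-Hochberg adjusted p of 0.05 in limma. This is to be read against all 11235 tested genes, of which 45.3% were lower and 17.7% higher by the same rule. The median log2 fold change, M2 minus M0, was −0.29 for members and −0.15 for all tested genes. In raw TPM, 39 of 50 members had every M2 library below every M0 library, as did 49.8% of tested genes, and 1 had every M2 library above, as did 19.6%. Summed over all 53 members, the level was 3008 ± 27.1 TPM in M2 and 3585 ± 41.7 TPM in M0 libraries (SD, n = 3 each). Falls of at least 0.5 on the log2 scale were found in 9 of the 50 tested members, a share close to the 16.5% of all tested genes. A rise of that size was found in 1 of the 50, against 8.15% of tested genes. The 9 were Srsf3, Hnrnpa1, Hnrnpa3, Hnrnpd, Hnrnpdl, Hnrnph1, Snrpa1, Snrpb2 and Snrpd1. The single rise was Hnrnpll.

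How many members count as lower depends on the scale. The median of −0.15 over all tested genes becomes 0.00 once each library is divided by its median ratio to the others. On the median-scaled values 24 members were lower, 5 higher and 21 did not pass, with a median of −0.12, while 28.2% of tested genes were lower and 28.8% higher. The 24 were the same genes that were lower in each of 14 alternative analyses, a count that was not made over all tested genes. The 5 higher were Hnrnpll, Srsf9, Hnrnpc, Hnrnpul2 and Sf3b2, and of these Hnrnpll alone was also higher on deposited TPM. By limma-voom on recovered reads 8 SR, 12 hnRNP, 7 snRNP and 4 SF3 genes were lower, against 41.1% of tested genes, and Hnrnpll was higher, against 20.7%. Where the direction of a member differed between the deposited and the median-scaled values, both are given.

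**Figure D1:**
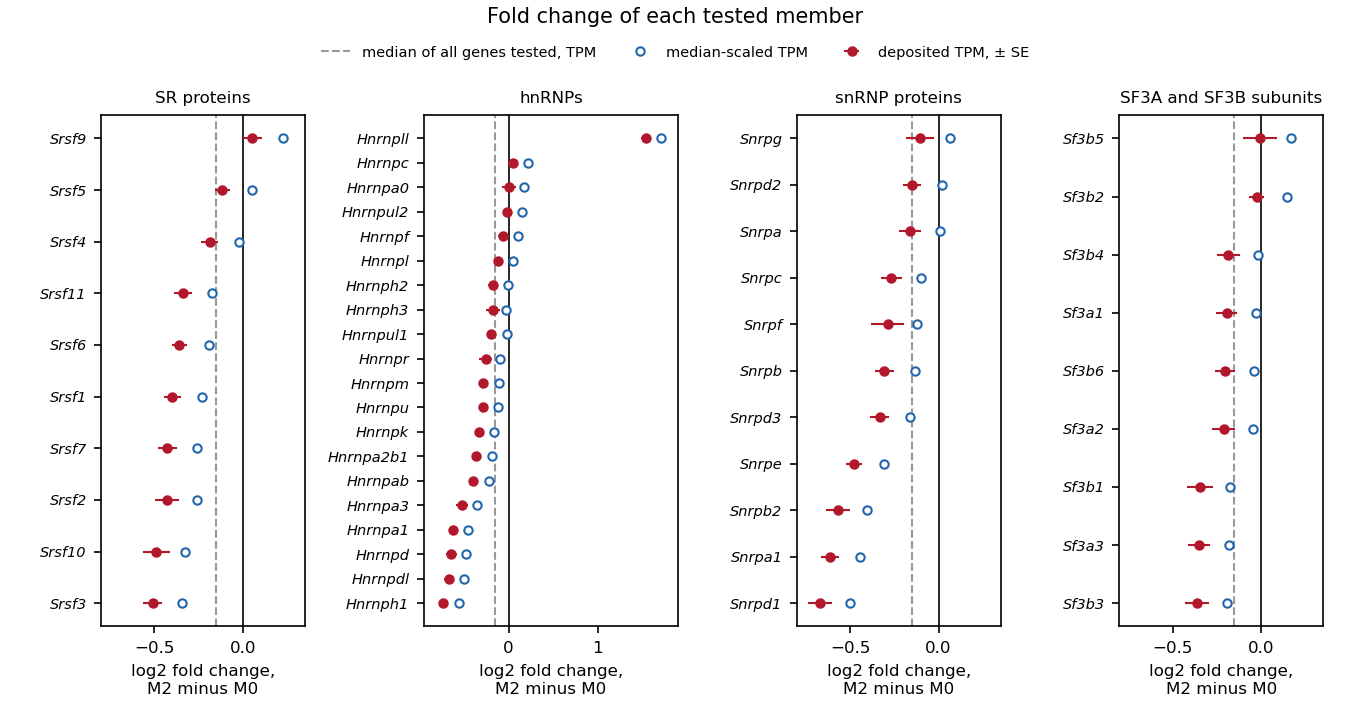
Log2 fold change (M2 minus M0) of each of the 50 tested members, by group. Filled points are deposited TPM with the standard error, open points median-scaled TPM, and the dashed line is the median of all tested genes (−0.15). The horizontal range of the hnRNP panel is wider because of Hnrnpll, at 1.54. Most filled points lie left of the dashed line.

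Among the SR proteins 9 of 10 tested members fell, against 45.3% of all tested genes, with a median log2 fold change of −0.38. After median scaling 7 were lower, 1 was higher and 2 did not pass, with a median of −0.21. Of all tested genes 28.2% were then lower and 28.8% higher. The summed level was 521 ± 3.46 TPM in M2 and 632 ± 16.5 TPM in M0 libraries (SD, n = 3 each). Srsf3, the smallest SR protein and a factor in splicing and mRNA export, fell the most. Its level was 25.9, 26.5 and 27.2 TPM in M2 libraries, against 36.8, 40.4 and 37.5 TPM in M0 libraries. The groups did not overlap, and the log2 fold change was −0.51 ± 0.05 (SE, limma adjusted p = 1.6e-05). The gene lies at chr17:29032660-29043372 (plus strand, mm10) and its counted transcript has 6 exons. Srsf10, which is dephosphorylated under heat stress to act as a splicing repressor, had 13.5, 11.6 and 14.3 TPM in M2 and 18.4, 19.4 and 18.5 TPM in M0 libraries. Its fall of 0.49 on the log2 scale had an adjusted p of 0.00028, and every M2 library lay below every M0 library.

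Srsf2, which binds exonic enhancers and is also found at paused polymerase, was the most abundant SR gene. It had 117.2, 116.4 and 120.2 TPM in M2 libraries, against 170.2, 141 and 168.1 TPM in M0 libraries, with M0 replicate 2 the lowest of its group but above all M2 libraries. Its log2 fold change was −0.43 ± 0.07 (SE, adjusted p = 0.00029). Srsf7, a sequence relative of Srsf3, had 29.5, 28.0 and 30.2 TPM in M2 and 37.8, 40.6 and 40.6 TPM in M0 libraries, a log2 fold change of −0.43 (adjusted p = 5.8e-05). Srsf1, the founding member of the family, had 38.0, 37.8 and 38.7 TPM in M2 and 48.2, 52.4 and 51.5 TPM in M0 libraries. Neither gene's groups overlapped. Srsf6 had 40.5, 40.2 and 40.8 TPM in M2 libraries and 51.7, 53.5 and 51.5 TPM in M0 libraries, again with no overlap and a log2 fold change of −0.36. Srsf11 fell by 0.34 on the log2 scale.

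The remaining SR genes moved least. Srsf4 averaged 29.5 ± 0.851 TPM in M2 and 33.7 ± 0.510 TPM in M0 libraries (SD, n = 3 each), a log2 fold change of −0.19 that was −0.02 and did not pass after median scaling. Srsf5 averaged 98.0 ± 2.72 TPM in M2 and 106 ± 2.52 TPM in M0 libraries, a log2 fold change of −0.12 that was 0.05 after median scaling. The Srsf5 call also missed the threshold without M2 replicate 1 (−0.13), 2 (−0.12) or 3 (−0.09) and without M0 replicate 3 (−0.10). Srsf9 was the one tested SR gene that did not fall on either scale. It averaged 99.1 ± 0.414 TPM in M2 and 95.6 ± 7.20 TPM in M0 libraries (SD, n = 3 each), with overlap, a log2 fold change of 0.05 (adjusted p = 0.41) on deposited TPM and a called 0.22 after median scaling. Srsf12 was at 0 to 0.021 TPM in every library and was not tested.

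**Figure D2:**
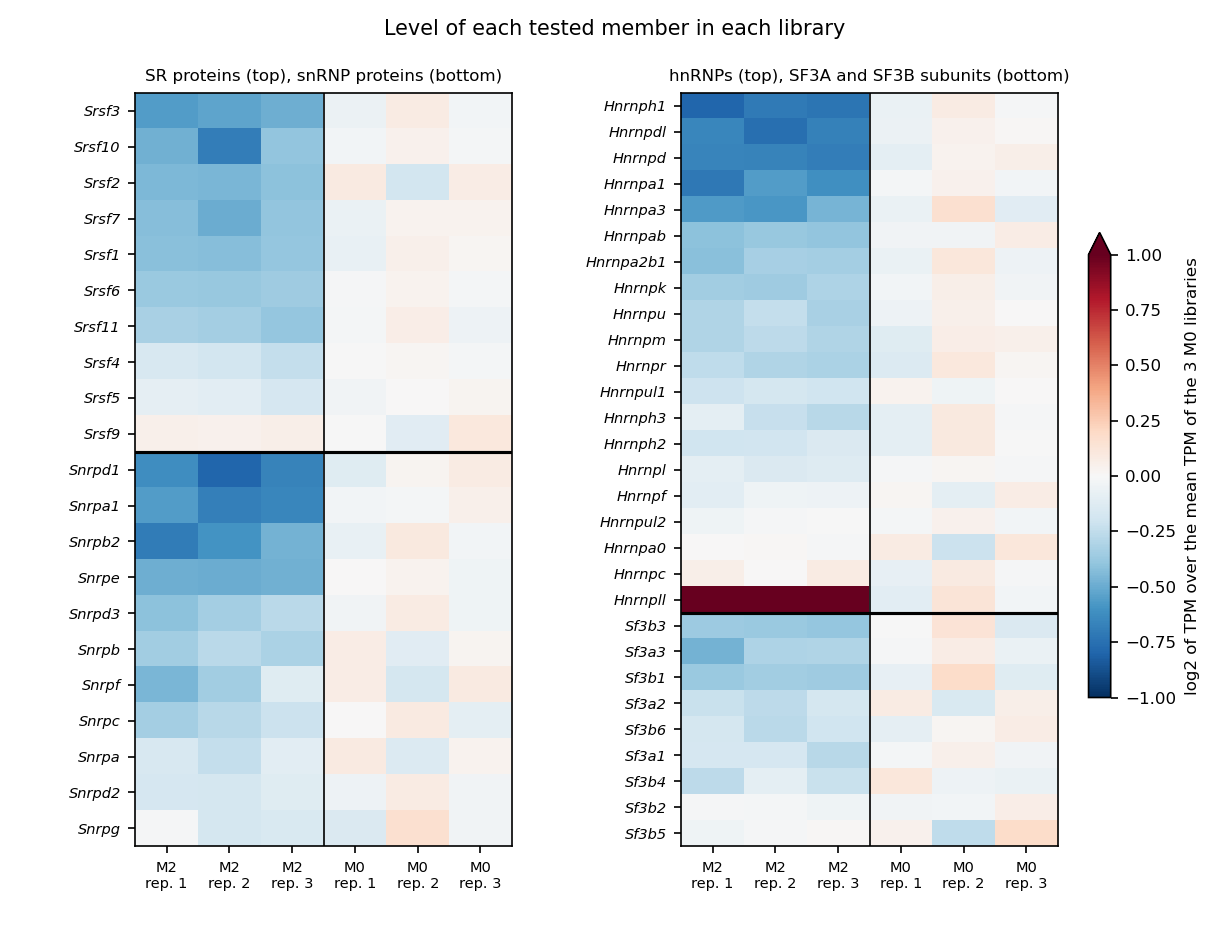
Level of each tested member in each library, as log2 of TPM over the mean TPM of the 3 M0 libraries, blue lower and red higher. Columns are the 3 M2 and then the 3 M0 libraries. Blue M2 columns run through most rows of all 4 groups, the Hnrnpll row exceeds the top of the colour scale, and M0 replicate 2 departs from the other M0 libraries in several rows.

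Among the hnRNP genes 14 of 20 tested members fell, 1 rose and 5 did not pass, and after median scaling 9 were lower, 3 higher and 8 did not pass. The shares of all tested genes were 45.3% lower and 17.7% higher, and after median scaling 28.2% and 28.8%. The median log2 fold change was −0.27 on deposited TPM and −0.11 on scaled values, and the summed level was 1508 ± 16.3 TPM in M2 and 1775 ± 44.8 TPM in M0 libraries (SD, n = 3 each). This group held both the largest fall and the largest rise of all tested members.

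Hnrnpll, the paralog of Hnrnpl known for CD45 exon skipping in lymphocytes, was the exception. Its level was 90.5, 91.0 and 94.7 TPM in M2 libraries, against 28.8, 33.9 and 30.4 TPM in M0 libraries. The groups were far apart, with the lowest M2 library well above the highest M0 library. The means were 92.1 ± 2.28 TPM in M2 and 31.0 ± 2.58 TPM in M0 (SD, n = 3 each), a ratio of 2.97, and the log2 fold change was 1.54 ± 0.06 (SE, limma adjusted p = 1.0e-08). It was 1.71 after median scaling, and the call held in each of the 14 alternatives. Hnrnpll ranked 174 from the top among the 11235 tested genes by log2 fold change, and the next member, Srsf9, ranked 3082. The gene lies at chr17:80029487-80062268 (minus strand, mm10), and its counted transcript has 13 exons.

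Its paralog Hnrnpl, which represses exons through CA repeats and is broadly expressed, did not share this rise. Hnrnpl averaged 106 ± 1.88 TPM in M2 and 116 ± 1.46 TPM in M0 libraries (SD, n = 3 each), which is −0.12 on the log2 scale (adjusted p = 0.021) and was 0.05 after median scaling. The Hnrnpl call was also lost without M2 replicate 2 (−0.11) or 3 (−0.12). The ratio of Hnrnpll to Hnrnpl within each library, which no scaling can change, was 0.836, 0.871 and 0.893 in M2 and 0.251, 0.289 and 0.264 in M0 libraries. Srsf7, 137.812 kb away on the same strand, moved in the opposite direction, and the ratio of Hnrnpll to Srsf7 averaged 3.15 ± 0.0896 in M2 and 0.783 ± 0.0464 in M0 libraries (SD, n = 3 each).

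**Figure D3:**
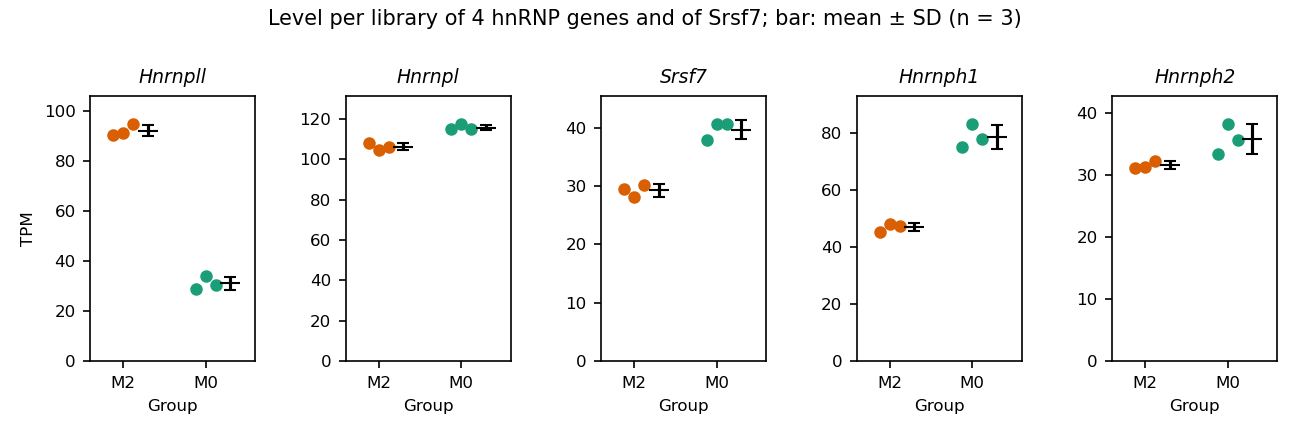
TPM of Hnrnpll, its paralog Hnrnpl, Srsf7 from the same stretch of chromosome 17, and the paralogs Hnrnph1 and Hnrnph2 in each library, with the mean and SD (n = 3) beside the points and every vertical axis starting at 0. Hnrnpll lies at 90.5 to 94.7 TPM in M2 and 28.8 to 33.9 TPM in M0 libraries, and the M2 points of the other 4 genes lie below their M0 points.

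The largest fall was that of Hnrnph1, which binds runs of G and regulates splice-site choice. Hnrnph1 had 45.4, 48.1 and 47.4 TPM in M2 libraries, against 74.9, 83.0 and 77.8 TPM in M0 libraries, with no overlap. It changed by −0.73 ± 0.05 on the log2 scale (SE, adjusted p = 7.9e-07), and −0.56 after median scaling. Its close paralog Hnrnph2, on the X chromosome, averaged 31.6 ± 0.621 TPM in M2 and 35.7 ± 2.39 TPM in M0 libraries (SD, n = 3 each), a log2 fold change of −0.17 that was 0.00 after median scaling and missed the threshold without M2 replicate 1 (−0.16), 2 (−0.16) or 3 (−0.19). The ratio of Hnrnph1 to Hnrnph2 was 1.454, 1.534 and 1.466 in M2 libraries and 2.241, 2.174 and 2.183 in M0 libraries. The 2 paralogs thus changed unequally, whatever the scale.

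Of the A and B type hnRNPs, which package pre-mRNA and act against SR proteins at many exons, Hnrnpa1, Hnrnpa2b1 and Hnrnpa3 fell and Hnrnpa0 did not pass. Hnrnpa1 had 72.6, 80.6 and 77.8 TPM in M2 and 117.5, 122.6 and 116.5 TPM in M0 libraries, a log2 fold change of −0.62 (adjusted p = 2.1e-06). Hnrnpa3 had 45.2, 44.7 and 48.5 TPM in M2 and 63.9, 74.8 and 61.9 TPM in M0 libraries, a log2 fold change of −0.52 (adjusted p = 0.0001). Neither gene's groups overlapped, but both values are uncertain because rows of pseudogenes overlap these genes on the same strand. The overlapping rows moved alike: Gm10052 averaged 78.5 TPM in M2 and 121 TPM in M0, Gm5643 63.8 TPM in M2 and 99.1 TPM in M0, and Gm6793, which overlaps Hnrnpa3, 87.0 TPM in M2 and 126 TPM in M0. Hnrnpa2b1, which encodes the A2 and B1 proteins, averaged 171 ± 5.20 TPM in M2 and 220 ± 15.5 TPM in M0 libraries (SD, n = 3 each). Its fall of 0.36 was smaller than that of Hnrnpa1, and the ratio of Hnrnpa1 to Hnrnpa2b1 averaged 0.451 ± 0.0113 in M2 and 0.542 ± 0.0231 in M0 libraries.

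Hnrnpd, also known as AUF1, binds AU-rich elements and is known to destabilise cytokine mRNAs. Hnrnpd had 15.2, 15.1 and 14.9 TPM in M2 libraries, against 22.5, 24.6 and 25.1 TPM in M0 libraries. Its log2 fold change was −0.64 ± 0.06 (SE, adjusted p = 6.7e-06), with no overlap. Hnrnpdl, a relative of Hnrnpd that lies 54.641 kb from it on chromosome 5, had 21.6, 20.1 and 21.3 TPM in M2 and 32.7, 35.0 and 34.2 TPM in M0 libraries, a log2 fold change of −0.67 (adjusted p = 2.3e-06). The ratio of Hnrnpdl to Hnrnpd overlapped between the groups, at 1.391 ± 0.0561 in M2 and 1.414 ± 0.0465 in M0 libraries (SD, n = 3 each). Hnrnpab, the most abundant hnRNP gene in these cells and another relative, had 174.3, 177.9 and 176 TPM in M2 and 226.1, 226.1 and 243.7 TPM in M0 libraries, without overlap and with a log2 fold change of −0.39.

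Hnrnpk, a poly(C) binding protein, fell by 0.33 and Hnrnpu, a nuclear matrix protein, by 0.28 on the log2 scale, and both were also lower after median scaling. Hnrnpm (−0.28), Hnrnpr (−0.25) and Hnrnpul1 (−0.19) passed on deposited TPM, but after median scaling they were at −0.11, −0.10 and −0.02 and did not pass. The 5 that did not pass on deposited TPM were Hnrnpc (0.05), Hnrnpa0 (0.01), Hnrnpul2 (−0.02), Hnrnpf (−0.06) and Hnrnph3 (−0.18). Of these, Hnrnpc, which binds U tracts, averaged 66.8 ± 1.78 TPM in M2 and 64.6 ± 3.83 TPM in M0 libraries (SD, n = 3 each), and was called higher, at 0.22, after median scaling. Hnrnpul2 was called higher at 0.15 on that scale, and Hnrnph3 was at −0.02 and not called. Hnrnpf was at 0.10 there and not called, but without M0 replicate 2 it passed as lower on deposited TPM, at −0.11. The pseudogene Hnrnpa1l2-ps2 was at 0 to 0.06 TPM and was not tested.

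Among the snRNP protein genes 10 of 11 tested members fell on deposited TPM, with a median log2 fold change of −0.31, and 5 were lower after median scaling, with a median of −0.13. The shares of all tested genes that were lower were 45.3% and, after median scaling, 28.2%. The summed level was 566 ± 11.5 TPM in M2 and 715 ± 2.07 TPM in M0 libraries (SD, n = 3 each). The larger falls were in the U2-specific genes of this group, Snrpa1 and Snrpb2, and in part of the Sm ring, the heptamer that encircles each of the Sm-class snRNAs. The genes of U1-specific proteins that the member rule found, Snrpa and Snrpc, were at −0.16 and −0.27. U1 genes with other symbols are counted with the other lists below. The SF3A and SF3B genes, whose proteins hold U2 in place, are a group of their own.

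For U2, Snrpa1 encodes the A′ protein and Snrpb2 the B″ protein, which together bind a stem-loop of U2 snRNA. Snrpa1 had 29.9, 27.5 and 28.2 TPM in M2 libraries, against 43.4, 43.5 and 45.7 TPM in M0 libraries, or −0.61 ± 0.05 on the log2 scale (SE, adjusted p = 3.3e-06). Snrpb2 had 24.8, 26.5 and 29.0 TPM in M2 and 38.3, 43.0 and 39.5 TPM in M0 libraries, or −0.57 ± 0.07 on the log2 scale (SE, adjusted p = 4.2e-05). Neither overlapped between groups, and both were also lower after median scaling, at −0.45 and −0.40. The 2 promoters printed above differ: that of Snrpb2 held CCGGAAG matches and that of Snrpa1 none.

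For U1, Snrpa encodes the A protein, a paralog of B″, and Snrpc the C protein, which contacts the paired 5′ splice site. Snrpa averaged 55.3 ± 2.49 TPM in M2 and 62.0 ± 4.88 TPM in M0 libraries (SD, n = 3 each). Its log2 fold change of −0.16 had an adjusted p of 0.047 and was 0.01 after median scaling, and the call was lost when M2 replicate 1 (−0.165), 2 (−0.13) or 3 (−0.19) or M0 replicate 1 (−0.12) or 3 (−0.14) was left out. Snrpc averaged 36.5 ± 1.62 TPM in M2 and 44.2 ± 2.91 TPM in M0 libraries (SD, n = 3 each), at −0.27 on deposited TPM and −0.10 and not called after median scaling. Within libraries, the ratio of Snrpb2 to Snrpa was 0.447, 0.504 and 0.504 in M2 and 0.582, 0.762 and 0.620 in M0 libraries, and that of Snrpa1 to Snrpa averaged 0.517 ± 0.0252 in M2 and 0.716 ± 0.0559 in M0 libraries. Both ratios were lower in every M2 library than in any M0 library. The pair of Snrpa1 and Snrpa was chosen after its values had been seen. The share of all gene pairs whose ratios do not overlap was not computed.

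Of the Sm proteins, Snrpd1 fell the most. It had 24.8, 22.1 and 24.1 TPM in M2 libraries, against 35.2, 39.0 and 40.4 TPM in M0 libraries, or −0.67 ± 0.07 on the log2 scale (SE, adjusted p = 1.1e-05) without overlap. Its partner in the ring, Snrpd2, averaged 75.8 ± 1.68 TPM in M2 and 84.4 ± 4.42 TPM in M0 libraries (SD, n = 3 each), a log2 fold change of −0.15 that was 0.02 after median scaling and missed the threshold without M2 replicate 1 (−0.14) or 2 (−0.14). The ratio of Snrpd1 to Snrpd2 averaged 0.312 ± 0.0183 in M2 and 0.453 ± 0.0328 in M0 libraries, with no overlap. This pair was chosen after its values had been seen. Snrpe had 45.2, 44.9 and 45.7 TPM in M2 and 63.6, 65.3 and 61.7 TPM in M0 libraries, a log2 fold change of −0.48 (adjusted p = 5.9e-06), again without overlap.

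Snrpd3 had 68.5, 72.0 and 75.5 TPM in M2 and 88.7, 96.1 and 88.1 TPM in M0 libraries, a log2 fold change of −0.33. Snrpb, which encodes the B and B′ proteins and was the most abundant snRNP gene, had 155.2, 164 and 158.6 TPM in M2 and 207.9, 182.7 and 201.5 TPM in M0 libraries, a log2 fold change of −0.31. Both were without overlap, but after median scaling Snrpd3 was called lower (−0.16) and Snrpb, at −0.13, was not. Snrpf was at −0.29 (adjusted p = 0.021), −0.12 after median scaling, and missed the threshold without M2 replicate 1 (−0.22) or 2 (−0.27) or M0 replicate 1 (−0.25) or 3 (−0.24). Snrpg, at 25.2 ± 1.59 TPM in M2 and 27.2 ± 2.92 TPM in M0 libraries, did not pass (−0.10, adjusted p = 0.27; 0.06 after median scaling). The ratio of Snrpe to Snrpg averaged 1.80 ± 0.111 in M2 and 2.35 ± 0.217 in M0 libraries. Snrpn, the imprinted relative of Snrpb that is expressed in brain, was listed at 0 in M2 libraries and at 0.026 to 0.028 TPM in M0 libraries and was not tested.

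**Figure D4:**
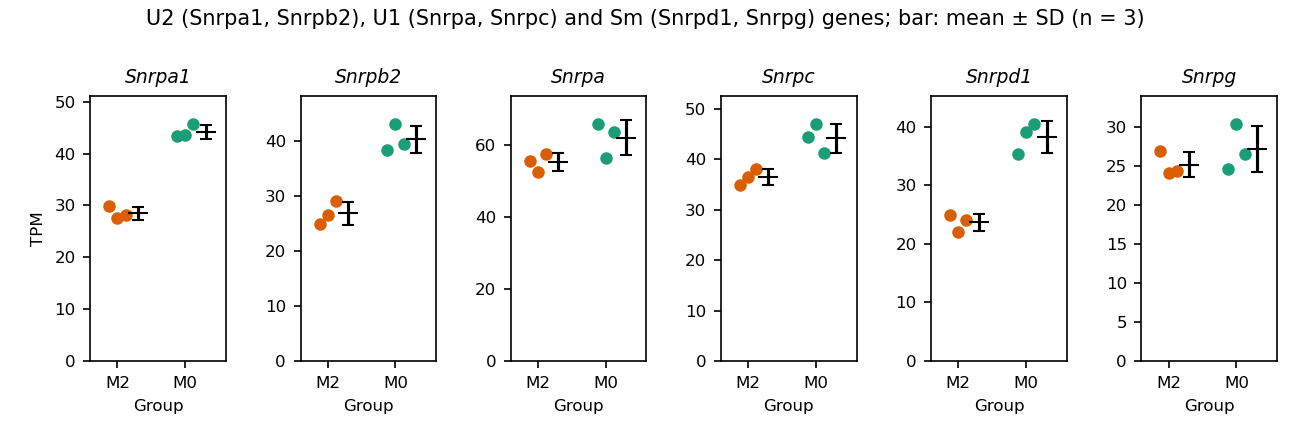
TPM of genes of U2 proteins (Snrpa1, Snrpb2), U1 proteins (Snrpa, Snrpc) and Sm ring proteins (Snrpd1, Snrpg) in each library, with the mean and SD (n = 3) beside the points and each vertical axis starting at 0. The M2 points of Snrpa1, Snrpb2 and Snrpd1 lie well below their M0 points, and those of Snrpa and Snrpg overlap with them.

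Among the 9 genes of SF3A and SF3B, which hold U2 at the branch point, 7 fell and 2 did not pass, with a median log2 fold change of −0.21. After median scaling 3 were lower, 1 was higher and 5 did not pass, with a median of −0.04. Of all tested genes 45.3% were lower on deposited TPM. After median scaling 28.2% were lower and 28.8% higher, with a median of 0.00, so the 3 lower SF3 genes are near the general share. The summed level was 413 ± 2.97 TPM in M2 and 463 ± 9.63 TPM in M0 libraries (SD, n = 3 each), and no subunit changed by 0.5 on the log2 scale. The 3 lower on both scales were Sf3b3, Sf3a3 and Sf3b1.

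Sf3b3, a large scaffold subunit, had 33.3, 32.9 and 32.6 TPM in M2 libraries, against 42.5, 47.0 and 38.7 TPM in M0 libraries, or −0.36 ± 0.07 on the log2 scale (SE, adjusted p = 0.00092). Sf3a3 had 24.3, 27.1 and 27.3 TPM in M2 and 33.4, 35.3 and 32.2 TPM in M0 libraries, a log2 fold change of −0.35 (adjusted p = 0.00069). Sf3b1, the subunit that clamps the branch-point helix and is often mutated in human myeloid neoplasms, had 43.4, 44.0 and 43.8 TPM in M2 and 53.0, 63.8 and 51.6 TPM in M0 libraries, a log2 fold change of −0.35 (adjusted p = 0.0021). None of the 3 overlapped between groups, against 49.8% of all tested genes with every M2 library below every M0 library. M0 replicate 2 was the highest library for each of the 3. Sf3b2, which binds Sf3b4, averaged 89.2 ± 0.98 TPM in M2 and 90.8 ± 3.49 TPM in M0 libraries (SD, n = 3 each), and its log2 fold change of −0.03 on deposited TPM (adjusted p = 0.64) was a called 0.15 after median scaling. The ratio of Sf3b1 to Sf3b2 averaged 0.491 ± 0.00736 in M2 and 0.619 ± 0.0879 in M0 libraries and did not overlap. This pair, too, was chosen after its values had been seen.

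The other SF3 falls were small. Sf3a2 had 32.7, 31.8 and 33.8 TPM in M2 and 40.5, 34.4 and 39.7 TPM in M0 libraries (−0.21), and Sf3b6, the subunit that contacts the branch-point adenosine, had 34.2, 32.1 and 33.6 TPM in M2 and 36.2, 39.1 and 40.5 TPM in M0 libraries (−0.21). Sf3a1 had 17.4, 17.4 and 16.2 TPM in M2 and 19.4, 20.3 and 19.1 TPM in M0 libraries (−0.19), and Sf3b4 was at −0.18. None of these 4 overlapped between groups, and 49.8% of all tested genes likewise had every M2 library below every M0 library. None of the 4 passed after median scaling, when they lay between −0.04 and −0.02. The Sf3a1 call was lost without M2 replicate 3 (−0.16), that of Sf3a2 without M2 replicate 1 (−0.21) or 2 (−0.19) or M0 replicate 1 (−0.17) or 3 (−0.18), and that of Sf3b4 without M2 replicate 1 (−0.15) or 3 (−0.17) or M0 replicate 1 (−0.13). The most abundant subunit gene, Sf3b5, had 105.4, 107.4 and 109.1 TPM in M2 and 111.5, 90.9 and 122.9 TPM in M0 libraries. Its groups overlapped, its log2 fold change was 0.00 (adjusted p = 0.98; 0.17 and not called after median scaling), and without M0 replicate 2 it passed as lower at −0.12.

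M0 replicate 2 was the highest M0 library in 31 of the 50 tested members, the lowest in 11 and between the others in 8. The same count over all tested genes was not made. Over tested genes, the factor for median scaling was 1.092 in M0 replicate 2, against 1.052 and 1.047 in M0 replicates 1 and 3. The 11 included Sf3b5 and Hnrnpa0, each counted on a single-exon transcript. They also included Srsf2, Snrpb and Sf3a2, whose counted transcripts have 3, 7 and 9 exons. Hnrnpa0 had 118.2, 118.8 and 116.9 TPM in M2 and 124.6, 101.4 and 127.7 TPM in M0 libraries, and without M0 replicate 2 its log2 fold change was −0.10 and passed, against 0.01 with it (0.18 and not called after median scaling). Of the 40 falls 24 kept their call in each of the 14 alternatives, which include leaving out each library, as did the rise of Hnrnpll. How many of all tested genes kept their call in each alternative was not counted. Whether members kept their calls more often than other genes therefore cannot be told. The 24 are also the members lower after median scaling, where 28.2% of all tested genes were lower. The 24 were Srsf1, Srsf2, Srsf3, Srsf6, Srsf7, Srsf10, Srsf11, Hnrnpa1, Hnrnpa2b1, Hnrnpa3, Hnrnpab, Hnrnpd, Hnrnpdl, Hnrnph1, Hnrnpk, Hnrnpu, Snrpa1, Snrpb2, Snrpd1, Snrpd3, Snrpe, Sf3a3, Sf3b1 and Sf3b3.

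The within-library ratios covered 13 pairs of members. The analysis plan named 4 of them as paralog pairs, but for a comparison of protein sequences, and 9 were chosen after their values had been seen. No ratio of levels, and no test of one, was planned. The pair of Snrpb and Snrpn, also named in the plan, was not compared. In each of the 4 paralog pairs named in the plan (Hnrnph1 to Hnrnph2, Hnrnpa1 to Hnrnpa2b1, Snrpb2 to Snrpa and Srsf4 to Srsf6) the groups did not overlap. The two-sided exact permutation p was 0.10 for each, the smallest that 3 against 3 libraries allow, and 0.10 after adjustment over the 4. The ratio of Srsf4 to Srsf6 averaged 0.729 ± 0.0251 in M2 and 0.646 ± 0.00474 in M0 libraries (SD, n = 3 each). The ratio of Srsf3 to Srsf9 averaged 0.268 ± 0.00633 in M2 and 0.402 ± 0.0477 in M0 libraries. The ratio of Srsf3 to Srsf7, at 0.908 ± 0.0338 in M2 and 0.964 ± 0.0363 in M0, overlapped between the groups.

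Genes that act with the members were counted in 10 lists. Across these lists of other splicing and mRNA export genes, 164 of 179 genes were tested: 107 fell, 10 rose and 47 did not pass, with a median log2 fold change of −0.24. Of all tested genes, 45.3% were lower and 17.7% higher, and after median scaling 28.2% and 28.8%. After median scaling 54 were lower, 28 higher and 82 did not pass, with a median of −0.07. Genes of snRNP assembly, the SMN complex and the methylosome that load and methylate Sm proteins, fell in 14 of 15 cases, with a median of −0.43, and 8 were lower and none higher after median scaling. Smn1, the core of the SMN complex, averaged 15.7 ± 0.822 TPM in M2 and 24.8 ± 0.734 TPM in M0 libraries (SD, n = 3 each), a log2 fold change of −0.63 (adjusted p = 6.8e-06). Prmt5 (−0.52) and Wdr77 (−0.55), the methyltransferase and its partner that modify Sm proteins, also fell.

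Of the U2 auxiliary factors 10 of 14 fell and none rose on deposited TPM, while 5 were lower and 1 higher after median scaling. Those that fell included U2af1, which reads the AG at the 3′ splice site, at −0.53, and the helicase gene Ddx46, at −0.55. Of the Lsm ring genes 7 of 10 fell, Lsm5 by 0.59, and 5 were lower and 1 higher after median scaling. Of the exon junction complex 6 of 9 fell, but 2 were lower after median scaling, a share below that of all tested genes. Magohb, one of its genes, had the largest fall of any listed gene, at 2.34 ± 0.432 TPM in M2 and 8.19 ± 1.73 TPM in M0 libraries (SD, n = 3 each; log2 fold change −1.45, adjusted p = 1.2e-05). Of the other splicing regulators 21 of 29 fell and 2 rose, and 14 were lower and 3 higher after median scaling. The paraspeckle gene Pspc1 averaged 6.82 ± 1.10 TPM in M2 and 15.8 ± 0.261 TPM in M0 libraries (SD, n = 3 each), a log2 fold change of −1.11 (adjusted p = 4.2e-06). Of the export genes 10 of 14 fell and 1 rose, with the helicase gene Ddx39 at −0.80, and 6 were lower and 2 higher after median scaling.

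Of the genes of U1, U5 and minor snRNPs that carry other symbols, 7 of 16 fell, no more than the 45.3% of all tested genes, and 5 were lower and 4 higher after median scaling. The 1 that rose on deposited TPM was Zrsr1, at 7.84 ± 0.448 TPM in M2 and 4.78 ± 0.534 TPM in M0 libraries (SD, n = 3 each; log2 fold change 0.62). Of the tri-snRNP and catalytic factors 18 of 30 fell and 3 rose, Prpf38b among them at 0.59, but 6 were lower and 6 higher after median scaling, with a median of −0.01. Of the SR protein kinases and their phosphatase 5 of 10 fell and 2 rose, close to the share of all tested genes that fell, and after median scaling the balance turned round to 2 lower and 5 higher. Clk4, a kinase of SR proteins, had 18.2, 21.5 and 21.3 TPM in M2 libraries, against 11.4, 12.2 and 11.3 TPM in M0 libraries, with no overlap (log2 fold change 0.76, adjusted p = 9.8e-06), while Srpk2, another such kinase, was at −0.54. Of the other SR-related genes 9 of 17 fell and 1, Thrap3, rose (0.24), but after median scaling 1 was lower and 6 higher.

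The levels rest on 1 counted transcript per gene. For 19 of the 53 members, Hnrnpll and Hnrnph1 among them, the comparison in the authors' deposited table uses another transcript than the TPM table. For Hnrnpll the authors' deposited table gives a log2 fold change of 1.74, and for Hnrnph1 −0.57. By the authors' own deposited test, Snrpd3 (−0.16, adjusted p = 0.092) and Sf3a3 (−0.19, adjusted p = 0.054) did not pass at 0.05. Both are among the 24 falls kept in each alternative, where the authors' log2-scale values were fitted anew by limma. Across the 18 tested members counted on different transcripts, the fold change on the authors' log2-scale values differed from that on median-scaled TPM by a median of 0.0108 and at most by 0.0686, in Hnrnpul1. Across the 32 counted on the same transcript the median difference was 0.00561. The use of alternative exons, such as those that trigger decay of SR protein mRNAs, cannot be read from 1 value per gene. Genes on the opposite strand overlap Srsf4, Hnrnpab, Hnrnph3, Hnrnpk, Snrpa and Snrpf. The mean level of the overlapping Gm12992 was 11.3 TPM in M2 and 13.0 TPM in M0 libraries, and since no source used here says that reads were counted by strand, the values of these 6 members may hold reads of the overlapping gene.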

How the data were processed

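Libraries were made from the poly(A) fraction of 100 ng total RNA, per the labels' protocols. The tools named in the submitters' processing notes are HOMER 4.11.1, STAR, bcl2fastq and DESeq2, with mm10 as the build, and their settings are not given in the sources used here. Exon reads were counted by HOMER on 1 RefSeq transcript per gene, per the file headers, and the authors deposited TPM for 25124 genes and 6 libraries. The TPM of these genes sum to 542749 to 543854 in M2 and 548160 to 553186 in M0 libraries. In a second table the authors deposited log2-scale values per library, whose transformation the header does not name, with log2 fold changes and raw and adjusted p-values. The tables were joined by symbol after 3 entries shifted by commas were realigned.

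The tables hold no counts, so counts were not tested directly. TPM times transcript length fell on steps of 1 read in each library, and 99.8% to 99.9% of values were whole reads within 0.1 read. They came to 89.8% to 90.9% of each library's tags as given in the headers. A precision taken from the reads of 1 library alone would cover counting error only, while the limma-voom fit uses the spread between libraries. Tested members had 140 to 10128 reads per library. Log2 of TPM with a pseudocount of 1 was tested by limma-trend (limma version 3.58.1 in R 4.3.3, with robust and trend moderation, a two-sided test and group as the only term) for 11235 genes with at least 1 TPM in at least 3 libraries, and adjusted by Benjamini-Hochberg over all of them at 0.05. Fold changes on this scale understate changes of low genes. For median scaling, TPM were divided by a factor per library, the median ratio to the mean library (0.941 to 0.945 in M2, 1.05 to 1.09 in M0). Other alternatives were pseudocounts of 0.1 and 5, no filter, limma-voom on recovered reads and the authors' log2-scale values. Further ones were replicate number as a block and each library left out. The last took out, in each library, the loess trend on length (span 0.5) of the deviations of log2 values from the gene means. Tables were made in Python 3.11.15 with pandas 2.3.3 and numpy 2.4.6, and figures with matplotlib 3.10.9.

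The members, lists and tests were chosen with earlier results of these data known. Each member may be named, with all libraries for the 6 largest changes and the most abundant gene of a group; of other lists, up to 4 genes with the largest called change. Coordinates and lengths are those of the deposited table (mm10), exon numbers those of GENCODE M21 by RefSeq identifier.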

Additional observations from a re-analysis of the deposited data

How the results depend on the processing

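The 40 falls and 1 rise among members were recomputed under 14 alternatives. After median scaling, 1 SR gene was higher, 3 hnRNP genes were higher and 9 lower, 5 snRNP genes were lower, and 1 SF3 gene was higher and 3 lower. Of other splicing genes 28 were then higher and 54 lower, and of all genes 3234 and 3163. With the log2-scale values of the authors these counts were again the same (1 SR gene higher, 3 hnRNP genes higher and 9 lower, 5 snRNP genes lower, 1 SF3 gene higher and 3 lower), with 28 higher and 58 lower among other splicing genes and 3318 and 3323 among all genes. With the trend on transcript length removed, 3 hnRNP genes were higher, 1 SF3 gene was higher and 4 lower, and 21 other splicing genes and 3041 of all genes were higher. By limma-voom on recovered reads 4 SF3 genes were lower. Median scaling, by its construction, shifts all log2 fold changes by nearly the same amount. Removal of the length trend, fitted in each library, by its construction also takes out that library's general offset. The cause of the other shifts was not tested.

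Members near 0 changed sign. After median scaling the log2 fold change was 0.054 for Srsf5, 0.105 for Hnrnpf, 0.049 for Hnrnpl, 0.152 for Hnrnpul2, 0.009 for Snrpa, 0.019 for Snrpd2, 0.062 for Snrpg, 0.145 for Sf3b2 and 0.167 for Sf3b5. On the authors' log2-scale values it was 0.054 for Srsf5, 0.095 for Hnrnpf, 0.046 for Hnrnpl, 0.048 for Hnrnpul1, 0.146 for Hnrnpul2, 0.007 for Snrpa, 0.016 for Snrpd2, 0.045 for Snrpg, 0.139 for Sf3b2 and 0.155 for Sf3b5. By limma-voom it was 0.033 for Hnrnpul2, 0.026 for Sf3b2 and 0.050 for Sf3b5. With the length trend removed it was 0.066 for Hnrnpf, 0.149 for Hnrnpul2, 0.133 for Sf3b2 and 0.010 for Sf3b5. With 1 library left out at a time, Hnrnpa0 ranged from −0.096 to 0.069, Hnrnpul2 from −0.031 to 0.005, Sf3b2 from −0.043 to 0.006 and Sf3b5 from −0.124 to 0.091. The lowest value of Hnrnpa0 and Sf3b5 and the highest of Hnrnpul2 came without M0 replicate 2, and the highest of Hnrnpa0, Sf3b2 and Sf3b5 without M0 replicate 3. The cause was not tested.

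With 1 library left out at a time, 8 to 9 SR genes, 12 to 16 hnRNP genes, 7 to 10 snRNP genes and 5 to 8 SF3 genes were lower, and of all genes 4457 to 5239 were lower and 1743 to 2217 higher. Same-numbered M2 and M0 libraries did not deviate together (correlations of 0.00495, −0.00487 and −0.0428). Whether they share a mouse or culture cannot be told from these values. A fit with replicate number as a block gave 1953 genes higher and 4963 lower and kept the call of 48 members, while 2, Srsf5 and Hnrnpl, no longer passed. Every tested member had at least 140 reads in each library, and with 3 libraries per group the spread rests on few values.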
